A study of Homo sapiens with 10 samples.

Results

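The genes described here are 6 cadherins, CDH1, CDH2, CDH3, CDH4, CDH11 and CDH13, and 3 catenins, CTNNA1, CTNNB1 and CTNND1. They were chosen by name, as the rows of the count tables that carry these symbols, and all 9 were found in both tables, among 26256 genes listed in the table of the untreated cells and 55736 in that of the Nutlin-3a experiment. RNA-seq of poly(A) RNA was read from MCF10A, an immortalized and nontransformed human mammary epithelial line, in 4 groups. The untreated table holds MCF10A cells, labelled parental, and MCF10A cells that carry an introduced HRas oncogene with the G12V change, labelled H-RAS Gv12 (termed G12V), with 2 libraries each. The other table holds parental MCF10A cells given 10 µM Nutlin-3a, which frees p53 from MDM2, or DMSO, its vehicle, for 4 h, with 3 libraries each. The study compared the first pair of groups to learn which transcripts change with transformation by HRas, and the second pair to learn which respond to activation of p53. G12V cells had been made by viral transduction of an HRas overexpression vector together with a GFP vector and selected with hygromycin, so they differ from the parental cells by transduction and selection as well as by the oncogene. Whether they derive from 1 clone is not given in the sources used here.

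Classical cadherins are transmembrane proteins that hold neighbouring cells together at adherens junctions by binding the same cadherin on the next cell through calcium-dependent outer domains. Inside the cell the cadherin tail binds beta-catenin (CTNNB1) or plakoglobin (JUP) and p120-catenin (CTNND1), and alpha-catenin (CTNNA1) joins that complex to the actin cytoskeleton. Beta-catenin that is not held at the junction or destroyed by the APC and axin complex acts in the nucleus in WNT signalling. In breast epithelium CDH1 (E-cadherin) is the main cadherin of luminal cells and CDH3 (P-cadherin) is typical of basal and myoepithelial cells, whereas CDH2 (N-cadherin) is typical of mesenchymal and neural cells.

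Total counts per library were 21538593 to 23683975 in the untreated table and 15453226 to 17378734 in the other. Levels are given as CPM, a normalized read count in which the reads of a gene are divided by the library's total after scaling by edgeR's TMM method. A gene was called differentially expressed (DE) when its log2 fold change was above 0.5 in size and its Benjamini-Hochberg adjusted p, by edgeR's quasi-likelihood test, was under 0.05. HRAS was higher in both G12V libraries than in both MCF10A libraries (log2 fold change 3.05), and the p53 targets MDM2 (2.54) and CDKN1A (2.16) were higher in all 3 Nutlin-3a libraries than in all DMSO libraries. All 6 epithelial markers examined (EPCAM, KRT5, KRT14, KRT8, KRT18 and DSP) reached 1 CPM in each MCF10A, DMSO and Nutlin-3a library, and 5 of 6 did so in G12V, where KRT14 had at most 3 reads.

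MCF10A cells carried the transcripts of 2 epithelial cadherins at high level, and G12V cells had almost lost both. CDH1 was 450-fold and CDH3 85.1-fold lower in G12V cells, and CDH2 was 4.02-fold higher. These 3 were the only members called DE, out of 8 tested (CDH11 had too few reads for the test), where 11.0% of the 14376 genes tested were DE, 5.01% higher and 5.95% lower in G12V cells. The 3 catenins and CDH4 and CDH13 were not called.

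CDH1, on chromosome 16 from 68771195 to 68869444 on the plus strand (hg19, as for all positions below except promoter windows), had 4390 and 5406 reads in the MCF10A libraries and 10 and 12 in the G12V libraries. On the CPM scale these levels were 200 and 238 against 0.428 and 0.535. The groups did not overlap and lay far apart, and both G12V libraries were near the bottom of what these libraries can measure. The means were 219 ± 27.3 CPM (SD, n = 2) for MCF10A cells and 0.481 ± 0.0761 CPM (SD, n = 2) for G12V cells. On the log2 scale CDH1 changed by -8.81 ± 0.28 (SE), with an adjusted p of 3.37e-04 by edgeR.

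CDH3 lies 38.2 kb from CDH1 on the same strand, from 68678151 to 68732957. It was read at 333 and 398 CPM in MCF10A cells and at 2.39 and 6.20 CPM in G12V cells, from 56 and 139 reads. The groups did not overlap, and the second G12V library held more CDH3 than the first. The means were 366 ± 46.3 CPM (SD, n = 2) for MCF10A cells and 4.30 ± 2.69 CPM (SD, n = 2) for G12V cells, and the change on the log2 scale was -6.41 ± 0.50 (SE; adjusted p of 0.00197 by edgeR). CDH3 was thus lower in G12V cells by less than CDH1, and that difference between the 2 genes was not tested.

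CDH2, on chromosome 18 from 25530927 to 25757410 on the minus strand, moved the other way. Its levels were 30.2 and 24.7 CPM in MCF10A cells and 104 and 117 CPM in G12V cells, so that both G12V libraries were above both MCF10A libraries. From a mean of 27.4 ± 3.93 CPM (SD, n = 2) it rose to 110 ± 8.70 CPM (SD, n = 2), by 2.01 ± 0.20 (SE) on the log2 scale (adjusted p of 0.00380 by edgeR). CDH2 was already expressed in the parental cells, in all 5 MCF10A and DMSO libraries.

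The calls of CDH1, CDH2 and CDH3 were lost when MCF10A replicate 1 was left out, with adjusted p-values of 0.0502, 0.0782 and 0.0719 by edgeR, and without that library none of 14883 genes tested was DE. The log2 fold changes then stood at -8.91, 2.18 and -6.52.

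**Figure D1:**
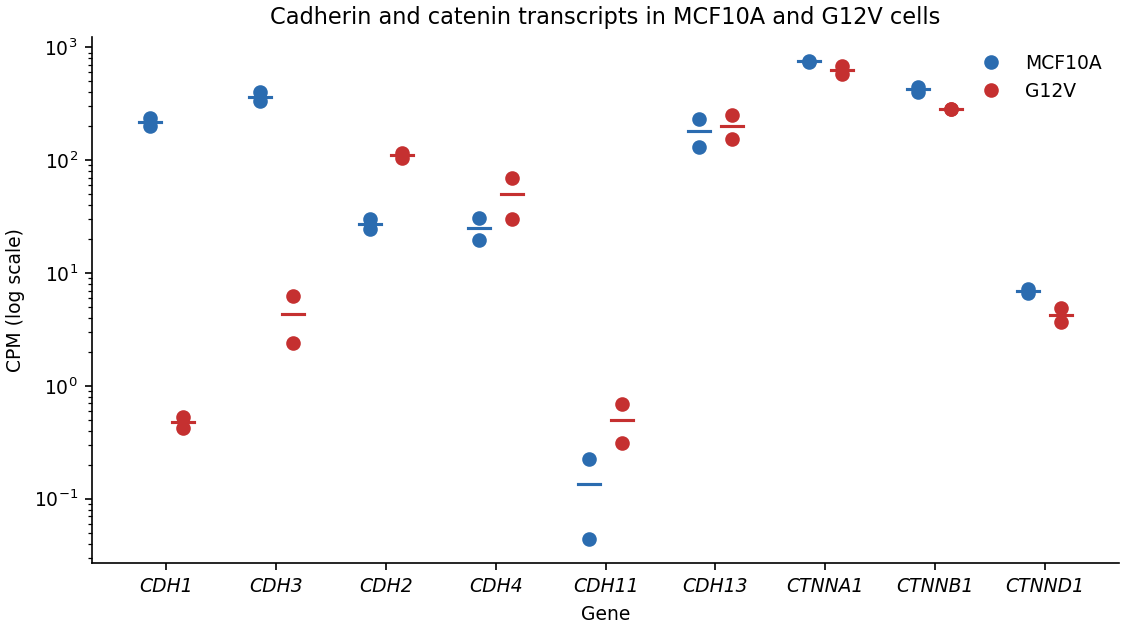
Level of each cadherin and catenin in the 2 MCF10A (blue) and 2 G12V (red) libraries, as CPM on a logarithmic axis, with points for libraries and short lines for means. CDH1 and CDH3 fall from means of 219 and 366 CPM to 0.481 and 4.30 CPM, CDH2 rises to 110 CPM, and the points of CDH4 and CDH13 overlap between the groups.

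The remaining cadherins showed no call in either direction. CDH4 (R-cadherin), a relative of CDH2 on chromosome 20, from 59827482 to 60515673, was read at 30.6 and 19.5 CPM in MCF10A cells and at 30.4 and 70.2 CPM in G12V cells. The first G12V library sat within the MCF10A range and only the second was above it, and the change of 1.00 ± 0.44 (SE) on the log2 scale had an adjusted p of 0.223 by edgeR. Without G12V replicate 1 the value was 1.48 and was called (adjusted p of 0.00567 by edgeR), and without G12V replicate 2 it was 0.28.

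CDH13 (T-cadherin), which has no transmembrane part and sits on the membrane by a lipid anchor, lies on chromosome 16 from 82660399 to 83830215. It was read at 130 and 234 CPM in MCF10A cells and at 154 and 251 CPM in G12V cells. Both groups had a low first and a high second library and covered nearly the same range, and they differed by 0.16 ± 0.36 (SE) on the log2 scale (adjusted p of 0.851 by edgeR). The antisense gene CDH13-AS2 covers 29.9% of the CDH13 exons in GENCODE, and the library kit named in the labels does not mark strand, so reads of both cannot be told apart.

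CDH11 (OB-cadherin), a mesenchymal cadherin on chromosome 16 from 64977657 to 65156040, was close to absent. It had 5 and 1 reads in the MCF10A libraries and 16 and 7 in the G12V libraries, below the count filter and untested. The fall of CDH1 and CDH3 and the higher CDH2 were therefore not joined by a high level of CDH11.

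Divided by the length of the canonical transcript, the levels can be set side by side between genes, as CPM per kb. In MCF10A cells the order was CTNNA1 (200), CTNNB1 (116), CDH3 (82.1), CDH1 (45.5), CDH13 (23.1), CDH2 (6.83), CDH4 (3.76), CTNND1 (1.04) and CDH11 (0.0202), with no neighbours whose 2 libraries overlapped. In G12V cells it was CTNNA1 (168), CTNNB1 (77.3), CDH2 (27.5), CDH13 (25.7), CDH4 (7.53), CDH3 (0.965), CTNND1 (0.640), CDH1 (0.100) and CDH11 (0.0741). There CDH2 and CDH13 overlapped, and so did CDH3 with CTNND1 and CDH1 with CDH11, so CDH1 had come down to the level of a cadherin that is hardly expressed. The place of CTNND1 is uncertain for the reason given with it.

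The summed level of the 6 cadherins was 161 ± 23.2 CPM per kb (SD, n = 2) in MCF10A cells and 61.9 ± 15.7 CPM per kb (SD, n = 2) in G12V cells. The groups did not overlap, and the exact two-sided permutation test gave p = 0.333, the smallest that 2 against 2 libraries allow. CDH1 and CDH3 made up 80.2% and 78.2% of this sum in the MCF10A libraries and 1.23% and 2.06% in the G12V libraries. Relative to CTNNA1, the cadherin sum was 0.806 ± 0.0987 (SD, n = 2) in MCF10A cells and 0.364 ± 0.0499 (SD, n = 2) in G12V cells.

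CDH2 made up 4.32 ± 1.23% (SD, n = 2) of the cadherin sum in MCF10A cells and 45.4 ± 8.03% (SD, n = 2) in G12V cells. CDH13 went from 14.0 ± 3.75% (SD, n = 2) to 41.1 ± 3.69% (SD, n = 2) of a smaller sum, while its own level was not called. Without division by length, CDH13 led in G12V cells with 54.6% of the counts against 30.9% for CDH2, so which of both comes first depends on the lengths. The ratio of CDH1 to CDH2 was 6.78 ± 1.80 (SD, n = 2) in MCF10A cells and 0.00363 ± 2.90e-04 (SD, n = 2) in G12V cells.

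**Figure D2:**
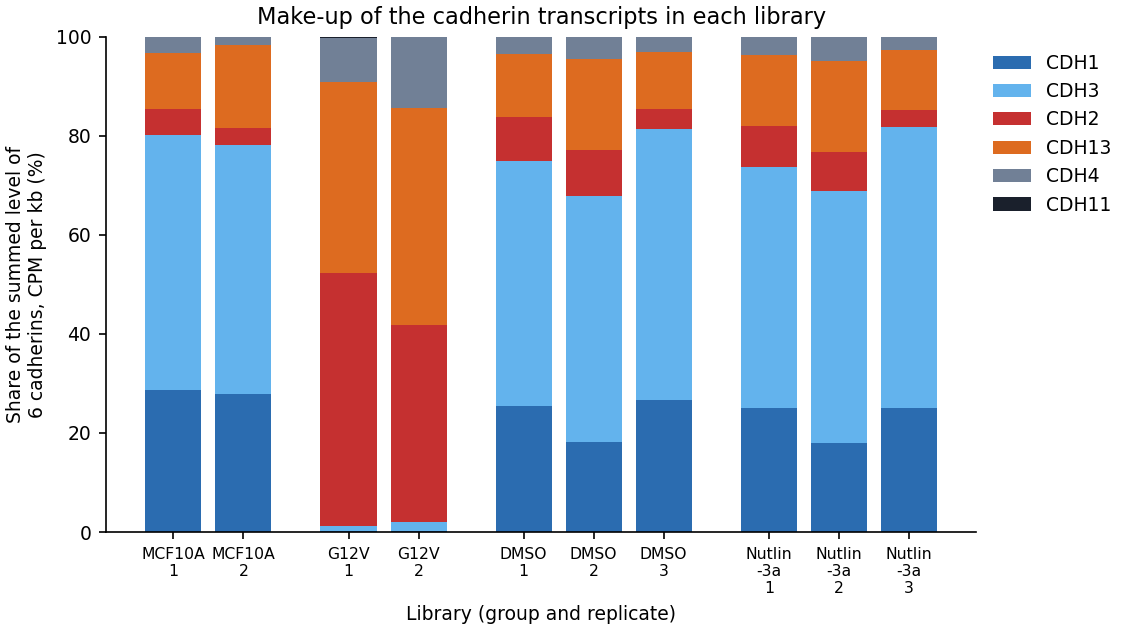
Share of each of 6 cadherins in their summed level (CPM per kb of canonical transcript), in percent, with 1 bar for each of the 10 libraries. CDH1 and CDH3 (blue) fill 67.8% to 81.8% of the bar in MCF10A, DMSO and Nutlin-3a libraries and 1.23% to 2.06% in the G12V libraries, where CDH2 (red) and CDH13 (orange) fill most of it.

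CTNNA1 and CTNNB1 were read at high level in both cell types, and CTNND1 at a low one. CTNNA1, on chromosome 5 from 138089085 to 138270723, had 739 and 762 CPM in MCF10A cells and 579 and 686 CPM in G12V cells. Both G12V libraries were below both MCF10A libraries, but the difference on the log2 scale was small, -0.25 ± 0.22 (SE), and the adjusted p was 0.573 by edgeR.

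CTNNB1, on chromosome 3 from 41240942 to 41281939, had 445 and 402 CPM in MCF10A cells and 282 and 284 CPM in G12V cells. The groups did not overlap, and the G12V libraries were almost alike. The means were 423 ± 30.6 CPM (SD, n = 2) for MCF10A cells and 283 ± 1.57 CPM (SD, n = 2) for G12V cells, a difference of -0.58 ± 0.20 (SE) on the log2 scale. By edgeR the unadjusted p was 0.0249 and the adjusted p 0.126, so CTNNB1 was not called. With it, 4 of the 8 members tested had an unadjusted p under 0.05, against 25.6% of all genes tested. When the replicate number entered the fit as a block, CTNNB1 was called lower beside CDH1, CDH2 and CDH3, and 28.9% of all genes tested were DE. The groups did not overlap for 6 of the 8 members tested (CDH1, CDH2, CDH3 and the 3 catenins), against 54.8% of all genes tested.

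CTNND1, on chromosome 11 from 57529234 to 57586652, had 145 and 164 reads in MCF10A cells and 86 and 109 reads in G12V cells, which differ by -0.69 ± 0.32 (SE) on the log2 scale (adjusted p of 0.245 by edgeR). These counts were low for p120-catenin. There were 0.920 ± 0.0398 (SD, n = 2) CTNND1 reads per 100 CTNNA1 reads in MCF10A cells and 32.7 ± 2.19 (SD, n = 3) in DMSO cells, which are also parental. In the untreated table the read-through row TMX2-CTNND1 spans 57479995 to 57586652 and so covers CTNND1 whole, whereas in the other table it ends at 57559058, inside CTNND1. TMX2-CTNND1 itself had 0 reads in every library of both tables. Whether this overlap lowered the CTNND1 counts was not tested, and its level in the untreated table is uncertain.

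Promoter sequences were looked up for the 9 members in a RefSeq table (GRCh38.p14), which holds 4 of them, CTNNB1, CTNNA1, CDH2 and CDH4. CDH2, the cadherin that rose, and CTNNA1, the catenin with the highest level, are shown as the 250 bases before the start, 5′ to 3′ on the strand of the gene, with GC boxes (GGGCGG or CCGCCC) in capitals. The table gives 2 starts for CDH2 and 4 for CTNNA1, and the window shown is that of the most upstream start of each, chr18:28177131-28177380 on the minus strand and chr5:138753175-138753424 on the plus strand.
CDH2: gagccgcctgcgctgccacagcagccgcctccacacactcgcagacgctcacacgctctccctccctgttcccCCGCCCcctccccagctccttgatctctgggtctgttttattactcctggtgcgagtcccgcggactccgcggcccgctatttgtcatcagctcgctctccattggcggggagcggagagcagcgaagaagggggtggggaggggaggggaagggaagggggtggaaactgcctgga
CTNNA1: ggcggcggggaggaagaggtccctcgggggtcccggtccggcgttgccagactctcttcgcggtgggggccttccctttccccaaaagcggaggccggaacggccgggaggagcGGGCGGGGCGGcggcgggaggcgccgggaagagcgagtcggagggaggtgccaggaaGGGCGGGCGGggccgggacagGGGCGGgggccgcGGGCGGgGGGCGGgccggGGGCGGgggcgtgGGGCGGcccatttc
The CTNNA1 window is the richer in GC, with 80.0% G or C, 33 CpG and 9 GC boxes, some of which overlap, against 66.0%, 17 CpG and 1 GC box in that of CDH2. The CDH2 window also holds 1 CCAAT box (CCAAT or ATTGG). Neither holds the E-box CAGGTG (or CACCTG) or TATAAA (or TTTATA). The windows of the other starts differ, with 42.0% G or C, no GC box and 1 TATAAA for CDH2, and 40.8% to 80.4% G or C and 0 to 4 GC boxes for CTNNA1. Of 34788 promoters in the table, cut to the same length, 42.6% hold a GC box, 32.0% a CCAAT box, 17.5% the E-box and 10.8% TATAAA.

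Of 15 tested genes that lie within 500 kb of CDH1, CDH3 was the only DE gene, where 11.0% of all genes tested were DE, so the lack of other calls is near the background. The median log2 fold change of the 15 was 0.18. The next gene on the far side, TANGO6, which begins a few kb after the end of CDH1, changed by 0.44 ± 0.23 (SE) on the log2 scale (adjusted p of 0.314 by edgeR), and ZFP90, before CDH3, by 0.10 ± 0.38 (SE; adjusted p of 0.914 by edgeR). Neither was called. Among the 14 tested neighbours of CDH3, CDH1 alone was DE. CDH2 had no tested gene within 500 kb.

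**Figure D3:**
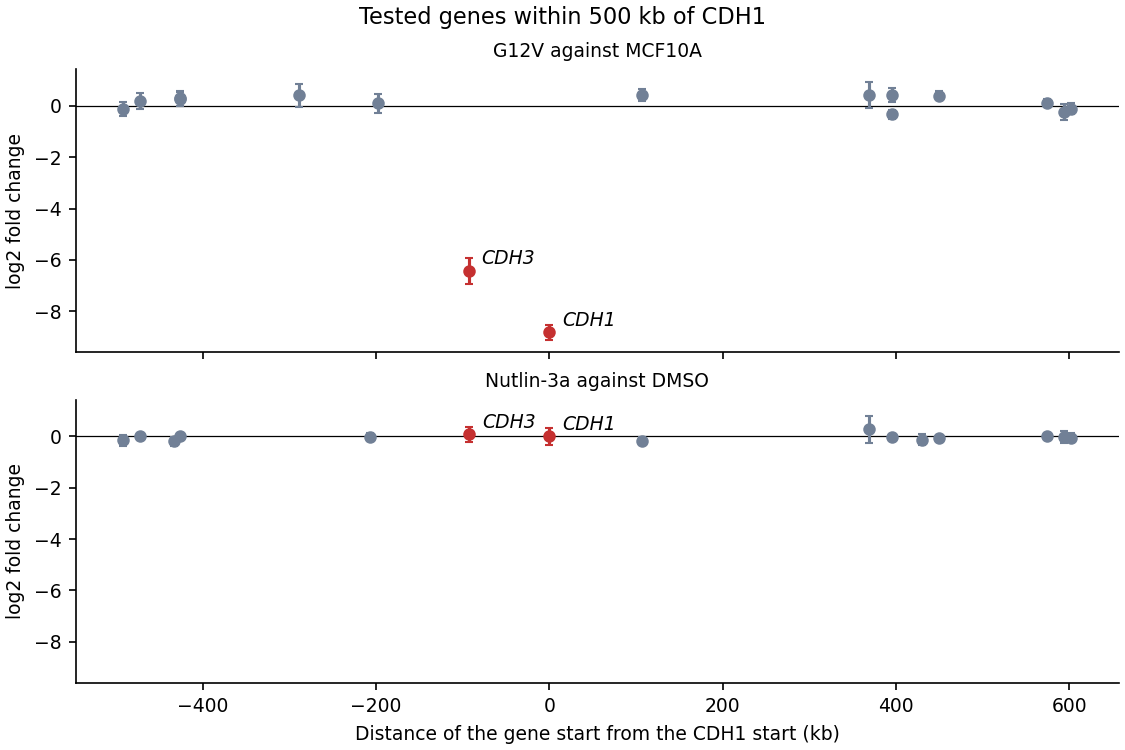
Log2 fold change with its SE (bars) of the tested genes that lie within 500 kb of CDH1, against the distance of each gene's start from the CDH1 start in kb, for G12V against MCF10A (top) and Nutlin-3a against DMSO (bottom). CDH3 and CDH1 stand at -6.41 and -8.81 in G12V cells, and all other genes stay within 0.44 of 0.

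By Euclidean distance of log2(CPM + 0.5) over the 4 untreated libraries, the tested genes most like CDH1 were FAT2, an atypical cadherin (distance 0.708), MIR205HG, the host transcript of a microRNA (0.955), and TIMP3, an inhibitor of metalloproteinases (0.970). FAT2 had 155 CPM in MCF10A and 0.460 CPM in G12V cells on average. Nearest to CDH3 were ST14, which encodes the protease matriptase (1.28), and the desmosomal cadherins DSC3 (1.3) and DSG3 (1.35), with log2 fold changes of -5.48, -6.50 and -6.59. Nearest to CDH2 were SH2B3 (0.285), DDAH1 (0.300) and ENGASE (0.520), with log2 fold changes of 2.05, 2.14 and 2.34. These distances are a description over 4 libraries.

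The 7 lists of other genes of the junction and of beta-catenin held 71 genes (AXIN2 stands in 2 lists), of which 53 were tested between MCF10A and G12V cells. Of these, 5 were DE and higher and 5 were DE and lower, where 5.01% and 5.95% of all genes tested were. The median log2 fold change was -0.06, against -0.0011 over all genes tested. None of the 10 was called without MCF10A replicate 1, CDH24 was also lost without MCF10A replicate 2 and LIMA1 without G12V replicate 1 or without the count filter. SP5 was lost whichever library was left out, and with RLE factors, library totals alone, no filter or DESeq2.

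Of 16 other cadherins only 2 passed the count filter, and no library held more than 18 reads of any of the other 14. CDH24, a type II cadherin, was higher, with 9.86 and 6.56 CPM in MCF10A cells and 23.5 and 20.0 CPM in G12V cells. The groups did not overlap, and it rose by 1.40 ± 0.29 (SE) on the log2 scale (adjusted p of 0.0339 by edgeR).

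Among 8 relatives of the catenins, 1 rose and 1 fell, where 5.01% and 5.95% of all genes tested did. CTNND2 (delta-catenin), a neural relative of p120-catenin, had 0 reads in both MCF10A libraries and 44 and 76 in the G12V libraries, at least 19.6-fold higher (adjusted p of 0.00957 by edgeR), where the bound is set against 3 reads per library. In the other table, on another annotation, the parental DMSO libraries held 7, 9 and 6 reads of it (0.430 ± 0.108 CPM, SD, n = 3). JUP (plakoglobin), which takes the place of beta-catenin on cadherin tails and also serves desmosomes, had 404 and 609 CPM in MCF10A cells and 55.1 and 74.5 CPM in G12V cells. Both G12V libraries were far below both MCF10A libraries, and JUP was 7.81-fold lower, -2.97 ± 0.30 (SE) on the log2 scale (adjusted p of 0.00424 by edgeR). CTNNBIP1, an inhibitor of beta-catenin, was not called, at -0.97 ± 0.24 (SE) on the log2 scale (adjusted p of 0.0542 by edgeR).

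Of 12 nectins and actin linkers 3 were lower and none higher, where 5.95% and 5.01% of all genes tested were. PVRL1 (nectin-1), which starts cell contacts independently of cadherins, had 194 and 210 CPM in MCF10A cells and 39.3 and 27.8 CPM in G12V cells, and it changed by -2.59 ± 0.23 (SE) on the log2 scale (adjusted p of 0.00308 by edgeR). CAMSAP3, which anchors the minus ends of microtubules and is found at adherens junctions, had 21.9 and 37.6 CPM against 0.727 and 1.29 CPM, or -4.88 ± 0.45 (SE) on the log2 scale (adjusted p of 0.00328 by edgeR). LIMA1 (EPLIN), which links alpha-catenin to actin, had 180 and 188 CPM against 60.1 and 101 CPM, or -1.19 ± 0.27 (SE) on the log2 scale (adjusted p of 0.0460 by edgeR). In all 3 both G12V libraries were below both MCF10A libraries. VCL, ACTN1 and ACTN4, general links of junctions to actin, had log2 fold changes of -0.06, -0.03 and 0.17 and were not called. MLLT4, PLEKHA7 and TJP1 were not called either, at -0.61, -1.01 and -0.63 (adjusted p of 0.0721, 0.0814 and 0.0762 by edgeR). These last 3 were called lower with the replicate number as a block. Of the 12 log2 fold changes 9 were below 0 and 3 above, with a median of -0.52.

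None of 7 proteases, ligases and phosphatases that act on cadherins was called, with log2 fold changes from -0.81 to 0.22. None of 7 genes of the destruction complex was called, and 6 of them (APC, AXIN1, GSK3A, GSK3B, CSNK1A1 and BTRC) had log2 fold changes between -0.26 and -0.03, with AXIN2 at 1.83 from 5 and 5 reads against 18 and 19 (adjusted p of 0.0650 by edgeR). Of 14 partners of beta-catenin and direct WNT targets, 12 were tested and SP5, a WNT-induced transcription factor, was the only DE gene, from 14 and 15 reads to 53 and 42 (1.67 ± 0.39, SE, on the log2 scale, adjusted p of 0.0496 by edgeR).

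Of 8 factors known to repress CDH1, ZEB1 and ZEB2 were higher and SNAI2 was lower, where 5.01% and 5.95% of all genes tested were. ZEB1 had 6.82 and 4.71 CPM in MCF10A cells and 37.9 and 53.3 CPM in G12V cells (2.98 ± 0.31, SE, on the log2 scale, adjusted p of 0.00447 by edgeR). ZEB2 had 5.55 and 6.69 CPM against 22.8 and 25.3 CPM (1.97 ± 0.25, SE, adjusted p of 0.00780 by edgeR). SNAI2 (Slug) had 54.8 and 74.3 CPM against 10.3 and 12.7 CPM (-2.49 ± 0.26, SE, adjusted p of 0.00430 by edgeR). The 3 called factors thus moved in both directions. SNAI1 (Snail) had 1.36 and 0.176 CPM against 3.42 and 4.86 CPM (2.42 ± 0.79, SE) and was not called (adjusted p of 0.117 by edgeR), but was called higher with the replicate block, edgeR's exact test or DESeq2 and without G12V replicate 1. KLF8 had 228 and 394 reads against 152 and 140 (-1.12 ± 0.34, SE, adjusted p of 0.0938 by edgeR) and was called lower with the block, the exact test or DESeq2. With the block 28.9% of all genes tested were DE. TWIST1, TWIST2 and TCF3 were not called, at 0.45, 0.25 and -0.09 on the log2 scale.

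The summed level of the 6 epithelial markers was 5417 to 6714 CPM in the MCF10A libraries and 1495 to 1838 CPM in the G12V libraries, most of it KRT5. Of the 6, EPCAM, KRT5, KRT14 and DSP were DE and lower, KRT18 was not called (-0.71 on the log2 scale, adjusted p of 0.0684 by edgeR), and KRT8 had 195 CPM in MCF10A and 222 CPM in G12V cells on average and was not called (0.18, adjusted p of 0.661 by edgeR). Their part in the results was not tested, and in bulk RNA fewer epithelial cells and less RNA per cell cannot be told apart. The 6 fibroblast markers summed to 37.4 to 64.7 CPM in MCF10A cells and 53.4 to 59.9 CPM in G12V cells, most of it DCN (means of 41.8 and 50.8 CPM, not called). LUM was DE and higher, with 1 and 0 reads against 28 and 27 (at least 8.94-fold, adjusted p of 0.0114 by edgeR), and COL3A1 was at 0. The 6 endothelial and blood markers summed to 14.0 to 15.3 CPM and 41.3 to 76.0 CPM, most of it CD68, which was DE and higher (means of 12.2 and 55.0 CPM, adjusted p of 0.0155 by edgeR), with HBB at 0 in both groups and PTPRC at 0 in G12V cells. In the other table, on another annotation, CD68 had 0 reads in each parental DMSO library. The part of these markers in the results was not tested either.

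In parental MCF10A cells, Nutlin-3a for 4 h left no cadherin or catenin called. None of the 8 members tested was DE by edgeR, none had an unadjusted p under 0.05, and DESeq2 and edgeR's exact test called none either, where 0.17% of 13529 genes tested were DE (0.155% higher and 0.0148% lower) and 3.42% had an unadjusted p under 0.05. All 8 log2 fold changes lay between -0.11 and 0.13, and the groups overlapped for each of the 8, where 8.07% of all genes tested had groups that did not overlap.

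CDH1 had 130, 95.7 and 219 CPM in the DMSO libraries and 141, 99.0 and 204 CPM in the Nutlin-3a libraries, in the order of their replicate numbers. CDH3 had 233, 243 and 418 CPM with DMSO and 253, 259 and 428 CPM with Nutlin-3a. For both genes the libraries numbered 3 were high with either treatment, and the treatments differed little within a number. The log2 fold changes were 0.0012 (SE 0.33) for CDH1 and 0.07 (SE 0.28) for CDH3, with an adjusted p of 1.0 by edgeR for both, as for all members.

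CDH2 had 37.2, 41.1 and 27.9 CPM with DMSO and 39.4, 36.0 and 23.2 CPM with Nutlin-3a, which differ by -0.11 ± 0.22 (SE) on the log2 scale. Here the libraries numbered 3 were the low ones. Between the replicate numbers, the mean level of CDH1 spanned 1.12 on the log2 scale, that of CDH3 0.80 and that of CDH2 0.59, and the largest difference between treatments within a number was 0.12, 0.11 and 0.26. JUP, whose libraries numbered 3 were also the high ones, spanned 0.69 between numbers and at most 0.09 between treatments. The labels do not say what a replicate number stands for.

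CDH4 had 23.3, 33.4 and 35.6 CPM with DMSO and 28.4, 38.0 and 30.3 CPM with Nutlin-3a (log2 fold change 0.07, SE 0.19). CDH13 had 107, 158 and 154 CPM against 132, 165 and 162 CPM (0.13, SE 0.17). It was the member with the largest fitted difference. Its level was higher with Nutlin-3a in all 3 pairs of the same number, as were those of CDH3 and CTNNA1. CDH11 had 18, 2 and 3 reads with DMSO and 11, 0 and 3 with Nutlin-3a and was untested, so it was near absent here too, apart from the libraries numbered 1.

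Of the catenins, CTNNA1 had 687, 793 and 779 CPM with DMSO and 759, 813 and 781 CPM with Nutlin-3a (log2 fold change 0.06, SE 0.11). CTNNB1 had 419, 484 and 518 CPM against 411, 482 and 560 CPM (0.03, SE 0.14). CTNND1 had 212, 256 and 274 CPM against 232, 245 and 238 CPM (-0.05, SE 0.12). These 3 were the steadiest members between replicate numbers, which spanned 0.15 for CTNNA1, 0.37 for CTNNB1 and 0.20 for CTNND1 on the log2 scale.

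**Figure D4:**
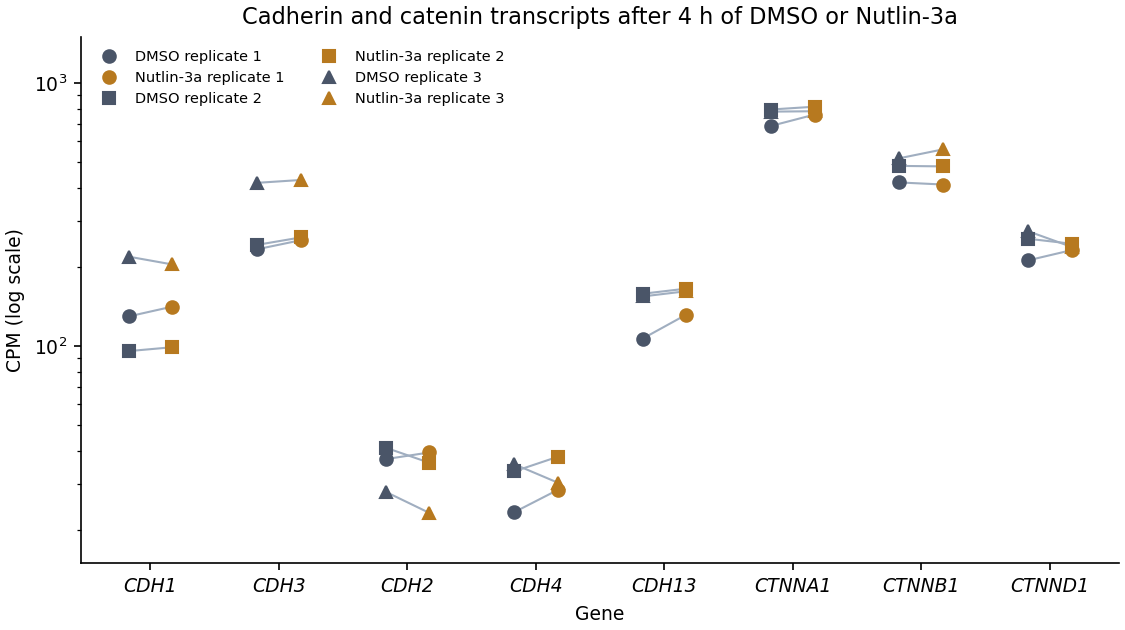
Level of 8 cadherins and catenins in 3 DMSO (grey) and 3 Nutlin-3a (brown) libraries, as CPM on a logarithmic axis, with a line between libraries of the same replicate number and a marker shape for each number. The lines are nearly flat, and CDH1 and CDH3 are highest and CDH2 lowest in the libraries numbered 3 of both treatments.

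The order of the levels per length was the same with DMSO and with Nutlin-3a. It ran from CTNNA1 (201 and 209 CPM per kb) over CTNNB1 (129 and 132), CDH3 (66.9 and 70.4), CTNND1 (37.0 and 35.7), CDH1 (30.8 and 30.8), CDH13 (17.7 and 19.4), CDH2 (8.82 and 8.19) and CDH4 (4.61 and 4.82) to CDH11 (0.0641 and 0.0434). In both groups the libraries of CDH1 overlapped those of CTNND1 above it and of CDH13 below it. The summed level of the 6 cadherins was 129 ± 36.7 CPM per kb (SD, n = 3) with DMSO and 134 ± 31.1 CPM per kb (SD, n = 3) with Nutlin-3a (exact two-sided permutation test, p = 0.6, where 0.1 is the smallest possible). CDH1 and CDH3 made up 74.7 ± 6.78% (SD, n = 3) and 74.7 ± 6.55% (SD, n = 3) of it (p = 1.0 by the same exact test).

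Of the 71 other genes of the lists, 50 were tested with Nutlin-3a and 1 was DE, a nectin. PVRL4 (nectin-4), a cell adhesion protein of the nectin family, had 39, 20 and 34 reads with DMSO and 240, 192 and 183 reads with Nutlin-3a, or 1.79 ± 0.495 CPM (SD, n = 3) and 12.9 ± 1.62 CPM (SD, n = 3). All 3 Nutlin-3a libraries were well above all DMSO libraries, a 7.17-fold rise, or 2.84 ± 0.25 (SE) on the log2 scale (adjusted p of 0.00410 by edgeR), and it was called under every alternative tried. In G12V cells PVRL4 was not called, with 5.05 and 5.86 CPM in MCF10A cells against 3.04 and 5.04 CPM.

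With the replicate number as a block, 2 list genes were DE, PVRL4 and CDH10, a type II cadherin of neural tissue, and no member was, where 1.22% of all genes tested were DE. CDH10 had 2, 3 and 0 reads with DMSO and 10, 14 and 17 with Nutlin-3a, at least 4.96-fold higher when set against 3 reads per library. Its adjusted p by edgeR was 0.0240 with the block and 0.269 without it. CDH10 was also called by edgeR's exact test and without the count filter, but not by DESeq2 or with any library left out. The Nutlin-3a libraries held 0.868 ± 0.251 CPM of CDH10 (SD, n = 3). In the untreated table, on another annotation, parental MCF10A libraries already held 11 and 18 reads (0.646 ± 0.207 CPM, SD, n = 2). G12V libraries held 7 and 3 reads, and CDH10 was not called there (-1.55 on the log2 scale, adjusted p of 0.173 by edgeR). With Nutlin-3a the remaining lists had no call, and the log2 fold changes of the factors known to repress CDH1 lay between -0.59 and 0.03.

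**Figure D5:**
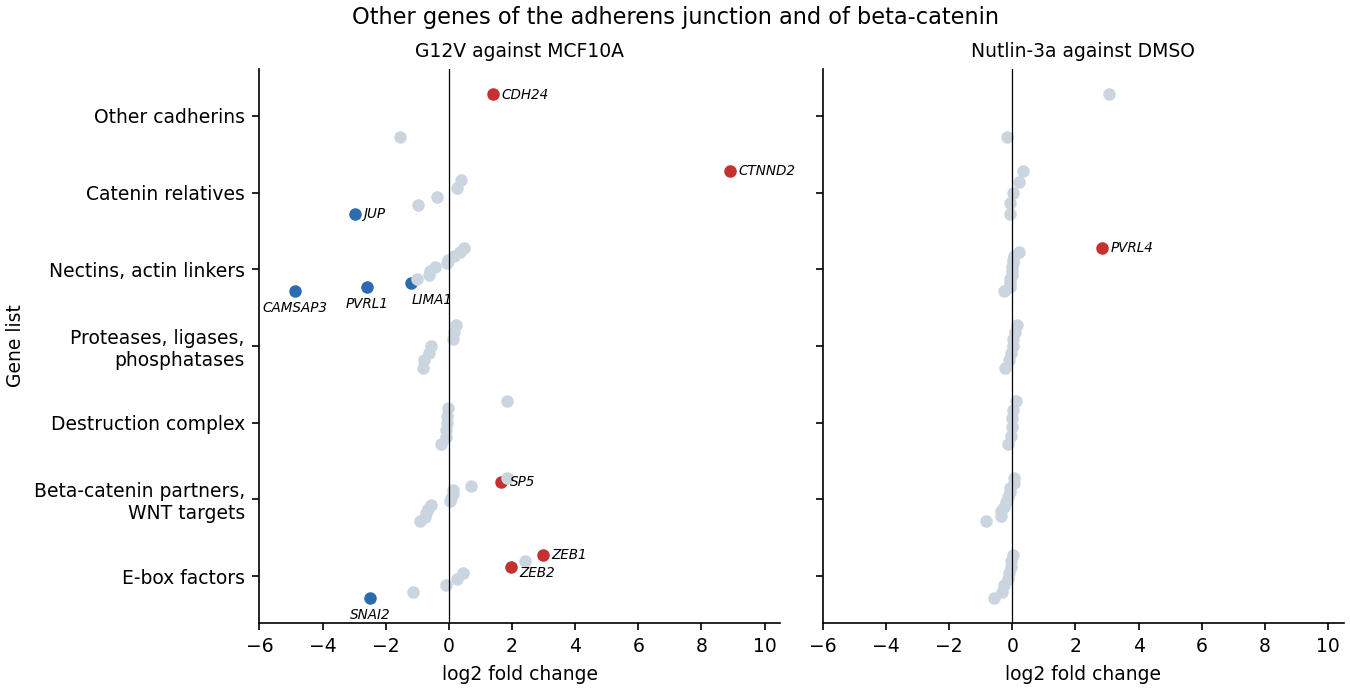
Log2 fold change of each tested gene of 7 lists (rows), for G12V against MCF10A (left) and Nutlin-3a against DMSO (right), with DE genes in red (higher) or blue (lower) and named, and the others in grey. The row labelled E-box factors holds the factors known to repress CDH1, KLF8 included. In G12V cells 5 genes are DE and higher and 5 are DE and lower, and with Nutlin-3a PVRL4 at 2.84 is the only DE gene (the fitted value of CTNND2, 8.90, depends on the prior count since its MCF10A libraries had 0 reads).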

How the data were processed

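RNA-seq libraries of MCF10A cells were analysed from 2 deposited tables of raw counts per gene, which the authors had made by aligning reads with TopHat and counting them with HTSeq, on hg19 per the labels, without normalization. The annotations and the strand setting are not given in the sources used here. Each table was fitted separately, using edgeR 4.0.16 (R 4.3.3) with filterByExpr at its defaults, TMM, quasi-likelihood F-test, Benjamini-Hochberg adjustment over all genes tested, and a prior count of 0.125. The thresholds for DE are those of the Methods. Standard errors were taken as the size of the log2 fold change divided by the root of the F statistic. The fit was also run on simulated counts drawn independently for each library. These had no pairing by replicate number, unlike the Nutlin-3a libraries. Transcript lengths are those of canonical transcripts in GENCODE v44 lifted to GRCh37, another annotation than that of the counts. Bounds set against 3 reads cover counting error only.

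The members and the gene lists were chosen with earlier results of these data known. Genes named are all members, list genes that were DE or that a sentence is about, the 3 tested genes nearest in pattern to each of CDH1, CDH2 and CDH3, and neighbours within 500 kb. The labels speak of biological replicas without saying which cultures they came from. The p-values therefore set each group difference against the variation between these libraries. Libraries of the same number in the Nutlin-3a experiment deviated together (r of 0.624, 0.603 and 0.639, against -0.474 to -0.191 for other pairs), so these numbers pair them. The main fit, its SEs and the permutation tests did not use this pairing, whereas the replicate block did. The results were recomputed with RLE factors, DESeq2 1.42.0, edgeR's exact test, library totals alone, no filter, the replicate block, a prior count of 2, an unadjusted p under 0.05 with a fold above 1.3, levels not divided by length, and each library left out in turn. Figures were drawn with matplotlib 3.10.9.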

Additional observations from a re-analysis of the deposited data

How the results depend on the processing

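Between MCF10A and G12V cells 3 members were DE, and the same 3 were called with DESeq2, edgeR's exact test, RLE factors, library totals alone, no filter and the replicate block (which added CTNNB1, adjusted p of 0.00666 by edgeR). Leaving out a library gave 0 to 4 DE members and 0 to 11 DE list genes, against 10, with 0 of both without MCF10A replicate 1. In that fit the lone MCF10A library is assumed to vary like the G12V libraries, and the cause of the loss was not tested. DE list genes numbered 18 by edgeR's exact test, 24 with the replicate block and 26 by an unadjusted p under 0.05 with a fold above 1.3. Over all genes 1575 were DE, against 2536 by the exact test and 4158 with the block. In these untreated cells, deviations of libraries of the same number correlated at 0.494 and those of other pairs at -0.494. With 2 libraries per group these values are forced to 1 size, so whether the numbers pair the libraries cannot be decided. With Nutlin-3a no member was called under any alternative. DE list genes numbered 2 (PVRL4 and CDH10), against 1, without a filter, by the exact test, with the replicate block and by the unadjusted p. Over all genes 23 were DE, against 99 without a filter, 84 by the exact test, 88 by DESeq2, 165 with the block and 7 to 11 with a library left out. Shares of CDH1 and CDH3 in the cadherin sum, without division by length, were 71.6% in MCF10A, 67.4% in DMSO and 66.9% in Nutlin-3a libraries.

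Log2 fold changes near 0 that changed sign were those of CDH1 with Nutlin-3a (-7.1e-05 with RLE factors, -0.031 with library totals and -0.0068 without a filter) and of CTNNB1 with Nutlin-3a (-0.0034 with library totals). With a library left out, CDH13 ranged from -0.24 to 0.64 in G12V cells. With Nutlin-3a, CDH1 ranged from -0.30 to 0.40, CDH2 from -0.26 to 0.090, CDH3 from -0.22 to 0.40, CDH4 from -0.10 to 0.19, CDH13 from -0.031 to 0.23, CTNNA1 from -0.0027 to 0.10, CTNNB1 from -0.086 to 0.14 and CTNND1 from -0.15 to 0.028. CDH11 was below the count filter at this depth.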
